A study of Mus musculus with 14 samples.

Results

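The cytochrome P450 family 2 genes were taken as all array rows whose gene symbol begins with Cyp2, followed by a single subfamily letter and a number. There were 47 such genes among 19505 named genes, 1 row each, in 13 subfamilies from Cyp2a to Cyp2w. Cyp2ab1, with a symbol of another form, was left out by this rule. The largest groups were Cyp2c with 14 genes, Cyp2d with 9, Cyp2j with 7, Cyp2b with 5 and Cyp2a with 4.

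Liver RNA came from 14 samples of male mice on the C57BL/6 background, all homozygous for floxed Prkaa1 and Prkaa2, the genes of the catalytic alpha1 and alpha2 subunits of the energy-sensing kinase AMPK. Every animal had a high-fat diet from 6 weeks of age, an adeno-associated virus (AAV8) at 10 weeks, metformin at 50 mg/kg per day over the next 3 weeks, and a fast of 16 h before the liver was taken. The labels give an age of 4 months. The 6 control samples had the virus with an empty vector behind the TBG promoter, and the 8 knockout samples had it with Cre. The TBG promoter directs Cre to hepatocytes, so other liver cells keep intact alleles. Both groups had the drug, and no untreated liver was used here. No label ties a sample to its own animal, and p-values therefore reflect variation among samples that may be technical.

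Family 2 enzymes are heme proteins of the endoplasmic reticulum that insert an oxygen atom into drugs, steroids, fatty acids and vitamin D, with electrons passed on by a reductase and cytochrome b5. In liver, Cyp2b genes are the classic targets of the receptor CAR (Nr1i3), which phenobarbital activates, while many Cyp2a, Cyp2b, Cyp2c and Cyp2d genes of mice differ between the sexes under control of growth hormone. Most mouse members stand in blocks of neighbouring copies, Cyp2a, Cyp2b, Cyp2f, Cyp2g, Cyp2s and Cyp2t on chromosome 7, Cyp2c on chromosome 19, Cyp2d on chromosome 15 and Cyp2j on chromosome 4.

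By their correlations the arrays formed 2 sets not named in any label, each with 3 control and 4 knockout samples. Control 1 to 3 and knockout 1 to 4 made up set 1, and all other arrays set 2. Correlations over all rows were 0.988 to 0.994 within a set and 0.951 to 0.963 across sets. Values are log2 signals, each difference is the knockout minus the control mean in log2 units from limma with the set as a term, and the threshold was a Benjamini-Hochberg adjusted p of 0.05 over all genes. Prkaa2 (-1.13 ± 0.08, SE, adjusted p = 1.92e-06) and Prkaa1 (-0.67 ± 0.13, SE, adjusted p = 0.0302) were both lower on all 8 knockout arrays than on every control array of the same set. Prkaa1 passed in 6 of 14 fits that each left out 1 array and not without control 1 and control 4 (adjusted p = 0.124). The hepatocyte marker mean lay between 12.6 and 13.0 on the control arrays and between 12.6 and 13.1 on the knockout arrays. Against the remaining controls of the set, endothelial markers were on average at -1.11 in control 1 and at -0.78 in control 4, and Kupffer cell markers at -0.92 and -0.45. In tissue RNA, fewer cells of a type and less RNA per cell cannot be told apart.

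All 9 Cyp2a and Cyp2b genes had negative knockout differences, of which 1 passed the threshold, while Cyp2c and Cyp2d genes had medians slightly above 0. Of the 47 genes 2 fell, Cyp2a22 and Cyp2r1, and 0 rose in limma. Over all genes 0.272% fell and 0.431% rose by the same rule, 0.702% together, against 2 of 47 members (4.26%), a share that rests on 2 genes. At an unadjusted p under 0.05, a weaker rule, 10 of the 47 genes (21.3%) were lower and 0 were higher, against 4.83% and 5.53% of all genes. Without control 1 and control 4 these counts were 8 and 3, and 0 genes passed the adjusted threshold. The 10 genes were Cyp2a4, Cyp2a5, Cyp2a22, Cyp2b9, Cyp2b10, Cyp2b13, Cyp2b23, Cyp2c70, Cyp2g1 and Cyp2r1. The median difference was 0.05 over the 47 genes and 0.00 over all genes, and 32 of the 47 differences were smaller than 0.2 in size.

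**Figure D1:**
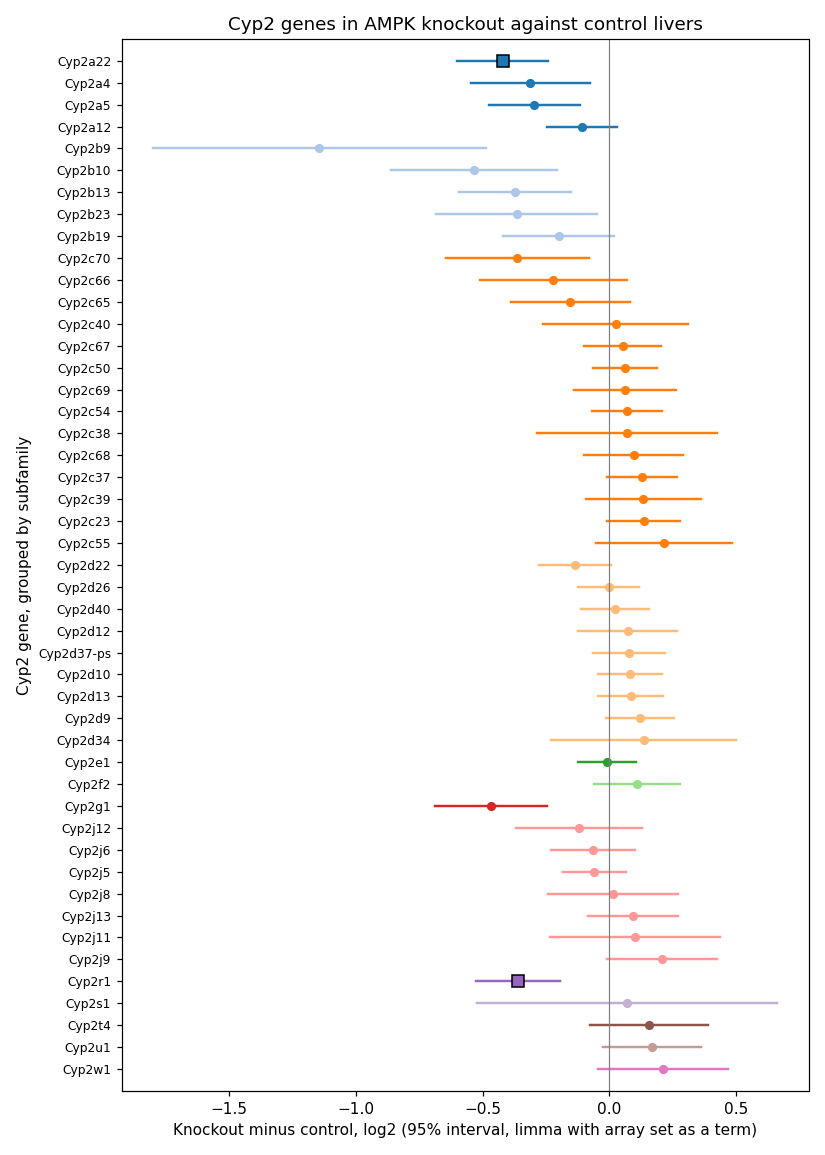
Knockout minus control difference (log2, horizontal axis) of the 47 Cyp2 genes, grouped by subfamily on the vertical axis; points are limma estimates with the array set as a term, lines are 95% intervals, and black-edged squares passed the adjusted threshold. The 4 Cyp2a and 5 Cyp2b genes all lie left of 0, while 11 of the 14 Cyp2c and 7 of the 9 Cyp2d genes lie right of it.

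Cyp2a22, a Cyp2a gene next to Cyp2a5, fell by 0.42 ± 0.08 (SE, adjusted p = 0.0335), to 0.747 of the control level. In set 1 its signal was 8.24, 8.08 and 8.47 in control 1 to 3 and 7.96, 7.90, 7.74 and 7.98 in knockout 1 to 4. In set 2 it was 8.55, 8.69 and 8.30 in control 4 to 6 and 7.94, 8.02, 8.01 and 8.21 in knockout 5 to 8. All 8 knockout arrays were thus below every control of their set, a pattern found for 2 of the 47 genes (4.26%) and for 0.538% of all genes. No member had all knockout arrays above the controls, against 0.774% of all genes. The size of the difference was between -0.47 and -0.38 when any 1 array was left out, but the adjusted p passed in only 3 of these 14 fits (without control 2, control 6 or knockout 8) and reached 0.0814. Without control 1 and control 4 it was -0.42 with an adjusted p of 0.122.

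Cyp2r1, which carries out the first hydroxylation of vitamin D in the liver, fell by 0.36 ± 0.08 (SE, adjusted p = 0.0454), to 0.779 of the control level. Its signal in set 1 was 8.47, 8.54 and 8.69 in the controls and 8.18, 8.25, 8.23 and 8.33 in the knockouts. Set 2 gave 7.03, 7.17 and 7.29 in the controls and 6.80, 6.75, 6.97 and 6.51 in the knockouts. The groups did not overlap within either set, although the sets themselves differed by -1.45, more than for any other Cyp2 gene in size. The difference was -0.32 in set 1 and -0.41 in set 2. Leaving out 1 array gave -0.39 to -0.32, and the adjusted p passed only without knockout 7 and reached 0.108. Without control 1 and control 4 the difference was -0.42 (adjusted p = 0.0809).

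The other Cyp2a genes had smaller negative differences. Cyp2a5, which hydroxylates coumarin and nicotine, differed by -0.30 ± 0.08 (SE, adjusted p = 0.153). In set 1 it ran from 12.35 to 12.79 in the controls and from 12.02 to 12.30 in the knockouts. In set 2 it ran from 12.44 to 12.62 and from 12.24 to 12.54, where knockout 6 lay above control 4. Cyp2a4, a female-predominant testosterone hydroxylase, differed by -0.31 ± 0.11 (SE, adjusted p = 0.290), with knockout arrays inside the control range in both sets, and by -0.23 without control 1 and control 4. Cyp2a12, a steroid hydroxylase, differed by -0.11 ± 0.06 (95% interval -0.25 to 0.03). Cyp2g1, known from the olfactory mucosa, lies between Cyp2b19 and Cyp2a5 and differed by -0.47 ± 0.10 (SE, adjusted p = 0.0537). Its signal in set 1 was 5.14, 4.83 and 5.00 in the controls and 4.37, 4.26, 4.41 and 4.53 in the knockouts. Set 2 gave 5.22, 5.26 and 5.55 in the controls and 5.25, 4.74, 4.78 and 5.25 in the knockouts, where knockout 5 and knockout 8 reached the controls. It passed without knockout 5 (adjusted p = 0.0386) or without knockout 8 (adjusted p = 0.0480), and in no other fit that left out 1 array. Cyp2g1 was below the median of every array, and how far it lay above background was not measured.

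**Figure D2:**
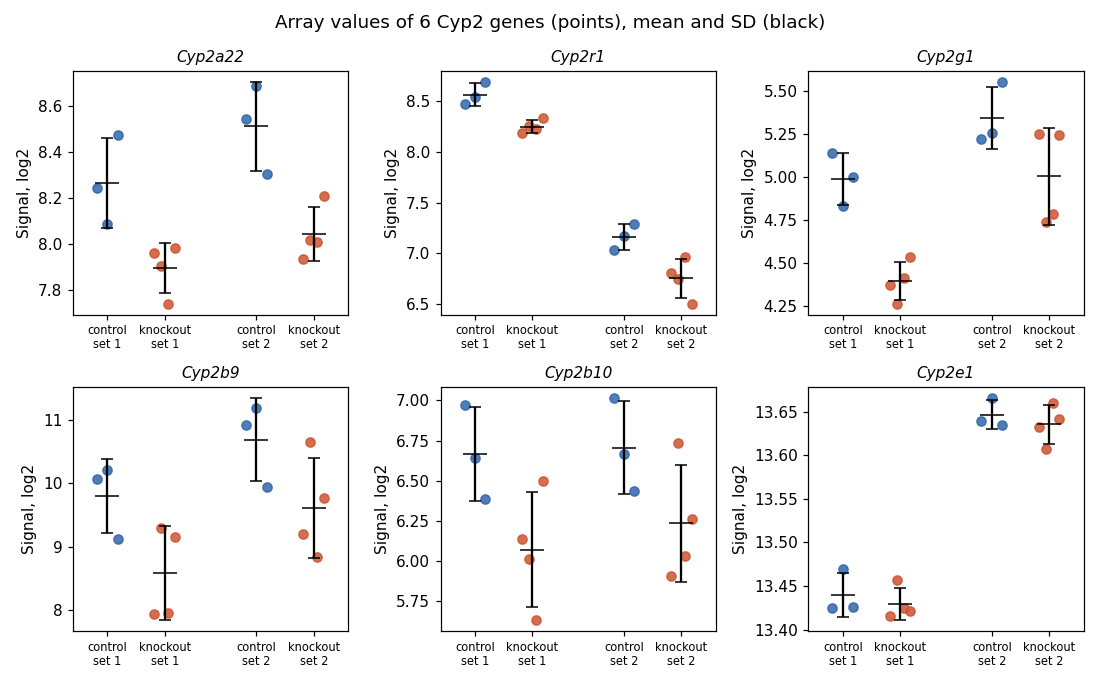
Signal (log2, vertical axis) of Cyp2a22, Cyp2r1, Cyp2g1, Cyp2b9, Cyp2b10 and Cyp2e1 in each of the 14 arrays, by group and array set on the horizontal axis; the black dash and bar are the mean and SD of 3 control or 4 knockout arrays, and the vertical axes do not start at 0. Knockout and control arrays do not overlap within sets for Cyp2a22 and Cyp2r1, overlap in both sets for Cyp2b9 and Cyp2b10, and lie together for Cyp2e1.

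All 5 Cyp2b genes had negative differences and none passed the adjusted threshold. Cyp2b9, a female-predominant steroid hydroxylase that is also expressed in livers of male mice on rich diets, had the largest difference of the 47 genes, -1.14 ± 0.31 (SE, adjusted p = 0.127, 95% interval -1.80 to -0.49). In set 1 its signal was 10.07, 10.21 and 9.13 in the controls and 7.94, 9.30, 7.94 and 9.16 in the knockouts. In set 2 it was 10.93, 11.19 and 9.94 in the controls and 9.20, 10.65, 8.84 and 9.77 in the knockouts. Control 3 and control 6 were the low controls of their sets, and knockout 2, 4 and 6 lay above them. Cyp2b9 also varied most within groups of all 47 genes, with a residual SD of 0.573 against a median of 0.171 over the members, and 99.7% of all genes varied less. Without control 1 and control 4 the difference was -1.02 (adjusted p = 0.322).

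Cyp2b10, the phenobarbital-induced CAR target, differed by -0.53 ± 0.15 (SE, adjusted p = 0.156). Its signal in set 1 was 6.97, 6.64 and 6.39 in the controls and 6.14, 6.01, 5.63 and 6.50 in the knockouts. Set 2 gave 7.01, 6.67 and 6.44 in the controls and 5.90, 6.74, 6.03 and 6.26 in the knockouts. Control 1 and control 4, in which markers of endothelium and Kupffer cells were low, were the highest controls for Cyp2b10 (0.46 above the other controls of the set in each case). The part of those markers in the Cyp2b10 values was not tested. Without both arrays the Cyp2b10 difference was -0.38 (adjusted p = 0.412). Cyp2b13, a female-specific copy close to Cyp2b9, differed by -0.37 ± 0.10 (SE, adjusted p = 0.145), Cyp2b23 by -0.37 ± 0.15 (adjusted p = 0.389) and Cyp2b19, a keratinocyte enzyme, by -0.20 ± 0.10 (adjusted p = 0.538). Without control 1 and control 4 these were -0.29, -0.27 and -0.08. Cyp2b13 and Cyp2b19 were below the median of every array. In all 5 Cyp2b genes control 3 was the lowest control of set 1 and control 6 the lowest of set 2, so the 5 genes do not vary independently.

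The 250 bases before the start sites of 3 Cyp2b and 3 Cyp2a genes are printed because these genes had differences of the same sign and stand in the same block. They come from RefSeq on build GRCm38.p6, on chromosome 7, and run 5′ to 3′ along the strand of the gene. Capitals mark matches on either strand to 5 motifs, TGTTTAC (FOXA), TTGCNNAA (C/EBP), TTCNNNGAA (STAT5), CAAAGTCCA (HNF4A) and AGGTCA (nuclear receptor half-site).
Cyp2b9 (chr7:26173159-26173408, plus strand): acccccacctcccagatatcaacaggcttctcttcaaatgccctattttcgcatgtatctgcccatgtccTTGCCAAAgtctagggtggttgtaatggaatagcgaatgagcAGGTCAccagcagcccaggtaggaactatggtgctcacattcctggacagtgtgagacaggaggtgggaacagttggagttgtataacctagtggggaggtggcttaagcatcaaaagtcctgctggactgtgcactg
Cyp2b13 (chr7:26061245-26061494, plus strand): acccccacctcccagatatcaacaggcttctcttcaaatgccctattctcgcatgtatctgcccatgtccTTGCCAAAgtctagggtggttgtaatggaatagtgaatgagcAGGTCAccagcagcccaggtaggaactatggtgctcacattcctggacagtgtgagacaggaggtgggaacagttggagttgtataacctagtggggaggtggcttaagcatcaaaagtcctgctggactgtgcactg
Cyp2b10 (chr7:25897408-25897657, plus strand): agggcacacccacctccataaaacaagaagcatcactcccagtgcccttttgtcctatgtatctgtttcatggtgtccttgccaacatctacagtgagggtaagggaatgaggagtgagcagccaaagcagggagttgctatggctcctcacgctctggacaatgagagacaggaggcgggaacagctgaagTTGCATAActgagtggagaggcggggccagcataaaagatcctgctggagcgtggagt
Cyp2a4 (chr7:26306942-26307191, plus strand): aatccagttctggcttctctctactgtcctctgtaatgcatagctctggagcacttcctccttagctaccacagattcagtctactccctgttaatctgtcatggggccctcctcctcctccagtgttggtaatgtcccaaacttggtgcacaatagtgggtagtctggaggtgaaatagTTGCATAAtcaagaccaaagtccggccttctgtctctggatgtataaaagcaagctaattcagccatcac
Cyp2a5 (chr7:26835089-26835338, plus strand): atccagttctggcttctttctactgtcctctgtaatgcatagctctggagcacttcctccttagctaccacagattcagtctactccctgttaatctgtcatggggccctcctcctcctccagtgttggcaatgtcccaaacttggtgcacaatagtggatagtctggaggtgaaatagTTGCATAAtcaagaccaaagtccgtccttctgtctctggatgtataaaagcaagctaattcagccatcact
Cyp2a22 (chr7:26939387-26939636, minus strand): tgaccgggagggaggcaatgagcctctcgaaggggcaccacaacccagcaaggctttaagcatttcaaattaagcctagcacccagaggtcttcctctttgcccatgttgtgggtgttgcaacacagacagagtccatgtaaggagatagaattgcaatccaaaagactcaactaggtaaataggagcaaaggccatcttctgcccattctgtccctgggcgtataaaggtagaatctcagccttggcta

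The Cyp2b9 and Cyp2b13 windows were 99.2% identical, and each was 70.0% identical to Cyp2b10. The Cyp2a4 and Cyp2a5 windows were 97.6% identical and matched Cyp2a22 at 51.1% and 49.6%. By the same alignment the window of Cyp2d9, a gene near the control level, matched these 6 at 45.7% to 49.1%, with 49.1% for Cyp2a22. A C/EBP match stood in 5 of the 6 windows and not in Cyp2a22. Over the 40 windows listed for 38 of the 47 members, 12 (30.0%) held it, against 9.56% of all 32851 windows. The half-site stood in Cyp2b9 and Cyp2b13, in 22.5% of the member windows and in 14.0% of all. The HNF4A letters stood in 6 member windows (15.0%) and 0.384% of all, the FOXA letters in 4 (10.0%) and 3.17%, and the STAT5 letters in 2 (5.00%) and 7.02%. None of these 3 matched in the 6 windows shown, and no match overlapped another. Copies share their letters, so the windows are not independent. Cyp2b9 with Cyp2b13 and Cyp2a4 with Cyp2a5 are close copies in which an array signal can be shared, and the probe sequences were not used here, so the values of each pair are uncertain as separate measurements.

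Cyp2c genes, which oxidise drugs and turn arachidonic acid into epoxides, were close to the control level. Of 14 genes 11 had positive and 3 negative differences, with a median of 0.07 and 0 past the threshold. Cyp2c65 and Cyp2c66, both among the 3 negative genes, were below the median of every array. Cyp2c37 (0.13 ± 0.06, 95% interval -0.01 to 0.27), Cyp2c50 (0.06 ± 0.06, interval -0.07 to 0.19) and Cyp2c54 (0.07 ± 0.06, interval -0.07 to 0.21) had narrow intervals. Cyp2c23, also called Cyp2c44, an arachidonate epoxygenase, differed by 0.13 ± 0.07 (interval -0.01 to 0.28). The female-predominant Cyp2c69 (0.06 ± 0.09) and Cyp2c40 (0.02 ± 0.13, and -0.01 in set 2) lay near 0. Other members named here as female-predominant or female-specific were at -0.31 (Cyp2a4), -0.37 (Cyp2b13) and -1.14 (Cyp2b9). None of these genes passed the adjusted threshold, and the part of sex bias was not tested.

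Cyp2c70, the mouse enzyme that makes muricholic bile acids, stood apart in the Cyp2c group at -0.36 ± 0.13 (SE, adjusted p = 0.304). Its signal was 10.66, 10.09 and 10.01 in the set 1 controls and 10.21, 9.83, 10.19 and 9.72 in the set 1 knockouts. In set 2 it was 10.59, 10.02 and 10.77 in the controls and 9.96, 9.90, 10.18 and 9.95 in the knockouts. Both groups overlapped in each set, with control 1, 4 and 6 high. Without control 1 and control 4 the difference was -0.23 (adjusted p = 0.594). Cyp2c55, an enzyme of arachidonate and linoleate hydroxylation, had the largest positive difference of the subfamily, 0.21 ± 0.13 (adjusted p = 0.613). It was 0.48 in set 1 and -0.05 in set 2.

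Cyp2d genes, relatives of the human debrisoquine hydroxylase, showed the least spread of differences among the larger groups, from -0.14 to 0.14 with a median of 0.08. Cyp2d9, a male-predominant steroid hydroxylase, differed by 0.12 ± 0.06 (95% interval -0.01 to 0.26), Cyp2d10 by 0.08 ± 0.06 (interval -0.05 to 0.21) and Cyp2d26 by -0.00 ± 0.06 (interval -0.12 to 0.12, with a sign that turned under median centring). Cyp2d22 differed by -0.14 ± 0.07 (interval -0.28 to 0.01), and Cyp2d34 by 0.14 ± 0.17 (interval -0.23 to 0.50). Cyp2d13 and Cyp2d37-ps, both transcribed pseudogenes in RefSeq, differed by 0.08 each.

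The comparison of subfamilies was made array by array, as the mean over the genes of a subfamily after the controls of the same set were subtracted. Each control array is itself part of the mean subtracted from it, which draws control values, but not knockout values, toward 0. For Cyp2a the 8 knockout arrays lay between -0.45 and -0.20 and the 6 control arrays between -0.10 and 0.12, with no overlap. For Cyp2b the knockout arrays lay between -0.80 and -0.15 and the controls between -0.36 and 0.26, with overlap from control 3 and control 6. For Cyp2c the ranges were -0.09 to 0.10 in the knockouts and -0.09 to 0.11 in the controls, and for Cyp2d -0.09 to 0.15 and -0.07 to 0.06. The median difference over genes was -0.30 for Cyp2a (-0.32 in set 1 and -0.29 in set 2) and -0.37 for Cyp2b (-0.37 and -0.47), against 0.07 for Cyp2c (0.07 and 0.05) and 0.08 for Cyp2d (0.07 and 0.05). Differences between subfamilies were not tested, because the genes of a subfamily are copies measured on the same arrays and were chosen with earlier results known.

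**Figure D3:**
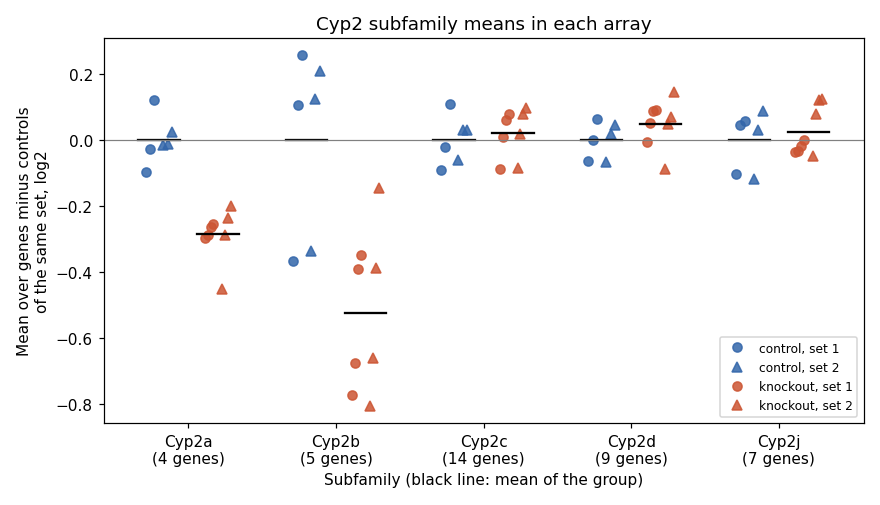
Mean over the genes of 5 subfamilies in each array after subtracting the controls of the same set (log2, vertical axis); circles are set 1, triangles set 2, and black lines group means. All 8 knockout arrays lie below 0 for Cyp2a and Cyp2b, while knockout and control arrays cover the same range for Cyp2c.

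The 7 Cyp2j genes, whose enzymes form epoxides of arachidonic acid, had a median difference of 0.01 with 3 negative and 4 positive members. Cyp2j5, the main form of liver and kidney, differed by -0.06 ± 0.06 (95% interval -0.18 to 0.06) and Cyp2j6 by -0.07 ± 0.08 (interval -0.23 to 0.10). Cyp2j9 had the largest difference, 0.21 ± 0.10 (adjusted p = 0.515). Cyp2j8, Cyp2j11, Cyp2j12 and Cyp2j13 were below the median of every array.

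Single-gene subfamilies followed no common direction. Cyp2e1, the pericentral ethanol-oxidising enzyme, differed by -0.01 ± 0.05 (95% interval -0.13 to 0.10), with signals of 13.4 to 13.5 in set 1 and 13.6 to 13.7 in set 2, close to the highest value on any array, 13.8. Cyp2f2, the periportal naphthalene oxidase, differed by 0.11 ± 0.08 (interval -0.06 to 0.28). Cyp2u1, a fatty acid hydroxylase, differed by 0.17 ± 0.09 (interval -0.02 to 0.36) and was 1.19 higher in set 2 than in set 1. Cyp2s1, an epithelial enzyme, had a wide interval (0.07 ± 0.28, -0.52 to 0.66), and its sign turned without control 1 and control 4 (-0.13). Cyp2w1, expressed in fetal gut, differed by 0.21 ± 0.12 and Cyp2t4 by 0.16 ± 0.11, and both were below every array median.

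By chromosome, 9 of the 10 genes at an unadjusted p under 0.05 were on chromosome 7, which holds 15 members. Of these 9 genes 8 were in the block that runs from Cyp2s1 to Cyp2t4, which holds 13 members. Over all genes 4.83% were lower at that level. The 8 include the close copies Cyp2b9 with Cyp2b13 and Cyp2a4 with Cyp2a5, which are uncertain as separate measurements. This block was singled out after its values were seen. Its 10 Cyp2a, Cyp2b and Cyp2g genes all had negative differences, with a median of -0.37, while Cyp2f2, Cyp2s1 and Cyp2t4 at its ends had positive ones of 0.07 to 0.16. The 5 other measured genes inside the block, receptor genes of the vomeronasal organ and Nlrp genes of oocytes, all had negative differences, from -0.16 to -0.02, with 0 at an unadjusted p under 0.05. Their control means were 2.85 to 3.18, near the lowest value on any array (2.13), so a fall could hardly have been seen in them and they give no contrast to the Cyp2 genes. Of the 5 nearest measured genes on each side, 2 were lower at that level, Itpkc (-0.27 ± 0.10) and Snrpa (-0.20 ± 0.09), and 0 passed the adjusted threshold. Over all genes 49.4% had a negative difference. Among the 34 members outside the block 10 were negative and the median was 0.07.

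**Figure D4:**
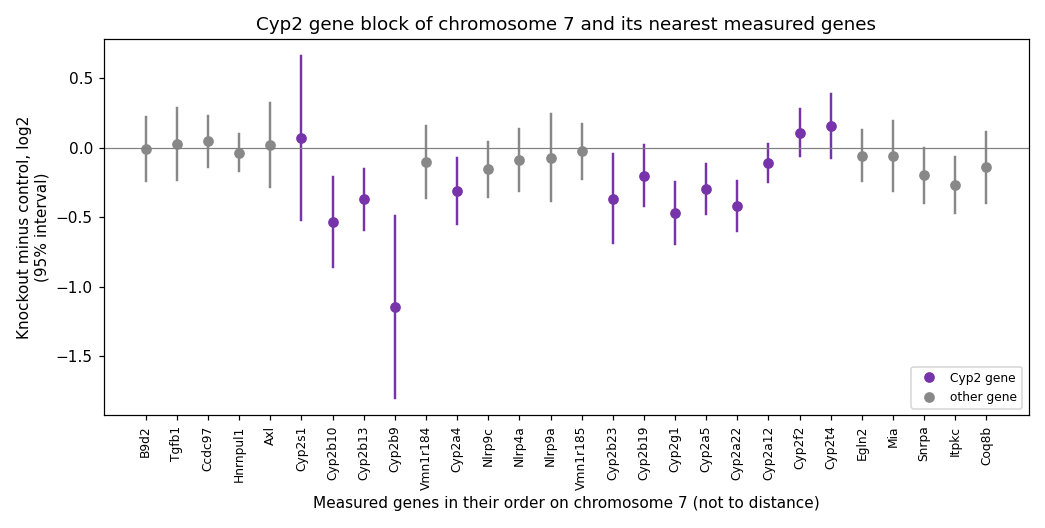
Knockout minus control difference (log2, vertical axis, with 95% intervals) of the measured genes from Cyp2s1 to Cyp2t4 and the 5 nearest measured genes on each side, in RefSeq order on chromosome 7 without distances; Cyp2 genes are purple and other genes grey. Estimates of Cyp2a, Cyp2b and Cyp2g genes lie below 0, and those of Cyp2s1, Cyp2f2 and Cyp2t4 lie above it. The intervals of Cyp2a12, Cyp2b19, Cyp2s1, Cyp2f2 and Cyp2t4 include 0.

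The interaction of knockout and array set passed for no Cyp2 gene (0 of 47 and 0% of all genes in limma; 2 of 47 at an unadjusted p under 0.05, Cyp2c55 and Cyp2j11, and 943 of 19505). With 3 and 4 arrays a set this test can miss such differences.

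Regulators and partners of P450 genes were read from lists, by the same fit. Of 29 nuclear receptors and transcription factors 0 passed in limma, against 0.702% of all genes, with a median of 0.06. At an unadjusted p under 0.05 there were 2 higher and 3 lower, against 5.53% and 4.83% of all genes. CAR (Nr1i3) differed by -0.07 ± 0.06 (95% interval -0.20 to 0.06), the xenobiotic receptor PXR (Nr1i2) by 0.18 ± 0.09 (interval -0.01 to 0.36), their partner Rxra by -0.01 ± 0.08, a sign that turned with array weights, and Hnf4a, a hepatocyte identity factor, by 0.08 ± 0.06. Onecut1, a liver factor named after its values were seen, differed by -1.12 ± 0.27 (adjusted p = 0.0827), and by -0.95 without control 1 and control 4. Of 6 listed redox and membrane partners 5 were measured, and the reductase gene Por was not among them. Of these 5 partners 0 passed in limma and 0 had an unadjusted p under 0.05. Cytochrome b5 (Cyb5a) was at -0.01 ± 0.06 (interval -0.15 to 0.12, positive after quantile normalization). Of 11 heme genes Blvrb, a biliverdin reductase, rose by 0.39 ± 0.08 (adjusted p = 0.0389), while Alas1, the first enzyme of heme synthesis, was at 0.29 ± 0.10 (adjusted p = 0.261).

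Other known targets of CAR and PXR were higher more often than lower. Of 23 measured targets 2 rose and 1 fell, with a median of 0.05, against 0.431% and 0.272% of all genes. At an unadjusted p under 0.05 there were 10 higher and 3 lower, against 5.53% and 4.83% of all genes. Of the 5 Cyp2b genes 0 were higher and 4 lower at that level. The part of CAR or PXR in any of these values was not tested. Ephx1, the microsomal epoxide hydrolase, rose by 0.52 ± 0.08 (adjusted p = 0.00873) and Slco1a4, an uptake transporter, by 0.67 ± 0.14 (adjusted p = 0.0335), while Thrsp, a lipogenic factor, fell by 0.75 ± 0.10. Cyp3a11, the main PXR target, was at 0.33 ± 0.10 (adjusted p = 0.195). Among 52 P450 genes outside the members 2 rose, Cyp8b1 of bile acid synthesis (0.46 ± 0.08) and Cyp3a59 (0.61 ± 0.13), 0 fell and the median was 0.01. With 1 array left out Ephx1 and Thrsp passed in 14 of 14 fits, Cyp8b1 in 13, Slco1a4 and Blvrb in 4 each and Cyp3a59 in 2.

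Sex-biased, growth hormone, zonation and inflammation genes outside the family were counted in the same way. Of 31 female-biased genes Atp6v0d2, a proton pump subunit, fell by 0.88 ± 0.19 and 0 rose, with a median of -0.04, and of 19 male-biased genes 0 passed in limma, with a median of 0.10. At an unadjusted p under 0.05 there were 8 higher and 4 lower female-biased genes and 5 higher and 2 lower male-biased genes. Over all genes 5.53% were higher and 4.83% lower at that level, the base for every such count in this paragraph. For the adjusted threshold the base was 0.431% higher and 0.272% lower, so 0 or 1 gene past it in a list says little about the list. Related Cyp3a and Cyp4a genes are among the 8, and their values may not be independent. Of 11 growth hormone signalling genes 0 passed and 8 were negative, 4 of them at an unadjusted p under 0.05, with Stat5b at -0.03 ± 0.11, a sign that turned in set 2. These 4, named after their values were seen, were the feedback inhibitors Cish (-0.83 ± 0.22, adjusted p = 0.111), Socs2 (-0.67 ± 0.22, adjusted p = 0.224) and Socs3 (-0.23 ± 0.08, adjusted p = 0.290), with Igfals, a carrier subunit for insulin-like growth factor (-0.26 ± 0.08, adjusted p = 0.203). In the same order they were at -0.71, -0.34, -0.19 and -0.18 without control 1 and control 4. Cish (adjusted p = 0.00950) and Socs2 (adjusted p = 0.0469) passed without control 6. Each passed in only this 1 of 14 limma fits that left out 1 array, with adjusted p up to 0.246 for Cish and 0.389 for Socs2. Of 17 pericentral genes Aldh3a2, a fatty aldehyde dehydrogenase, rose by 0.54 ± 0.07, the vasopressin receptor gene Avpr1a fell by 0.56 ± 0.11 and Slc1a2, a glutamate transporter, by 0.37 ± 0.08. Of 14 periportal genes 0 passed in limma, with 2 higher and 3 lower at an unadjusted p under 0.05. Of 23 acute phase genes Apcs, serum amyloid P, fell by 0.76 ± 0.14, 21 were negative, 11 of them at an unadjusted p under 0.05, and the median was -0.15. Of 18 eicosanoid genes Ephx1 alone passed. With 1 array left out Aldh3a2 passed in 14 of 14 fits, Apcs in 12, Avpr1a in 7, Atp6v0d2 in 2 and Slc1a2 in 0.

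No marker of another liver cell type passed the threshold in limma, with 0 of 14 for endothelium, 0 of 12 for stellate cells, 0 of 11 for Kupffer cells, 0 of 8 for bile duct and 0 of 9 for lymphocytes and neutrophils, nor did any of the 11 measured hepatocyte markers. At an unadjusted p under 0.05 there were 0 genes for endothelium, stellate and Kupffer cells, 1 higher each for bile duct and for lymphocytes and neutrophils, and 1 higher and 1 lower for hepatocytes. Over all genes 5.53% were higher and 4.83% lower at that level. The adjusted threshold was passed by 0.702% of all genes, so 0 in lists of this size says little about cell content. Of the 11 Kupffer cell markers 10 had positive differences and 1 a negative one. Relative to the controls of the same set, the endothelial mean ran from -0.74 to 0.41 over the controls and from -0.34 to 0.37 over the knockouts. The Kupffer mean ran from -0.61 to 0.36 and from -0.42 to 0.45, and the hepatocyte mean from -0.03 to 0.03 and from -0.03 to 0.06. In these ranges each control array is part of the mean subtracted from it, which draws control values toward 0. Median differences were 0.03 for endothelium, -0.00 for stellate cells, 0.12 for Kupffer cells, -0.02 for bile duct, 0.14 for lymphocytes and neutrophils and 0.02 for hepatocytes.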

How the data were processed

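The values were deposited on a log2 scale, 1 row per transcript cluster of an Affymetrix array. Per the submitters' processing notes RMA and Partek were used, with no version given. A range from 2.13 to 13.8 is the basis for reading the scale as log2. Depth does not apply to arrays, whose number limits the precision.

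Of 22206 rows 19572 had 1 gene symbol in the platform annotation, 0 had several and 2634 had none. For 55 genes with more than 1 row the brightest was used, with no filter on level. Sets came from average-linkage clustering of array correlations. The fit was limma 3.58.1 in R 4.3.3 with group and set terms and 11 residual degrees of freedom, checked on simulated data. Promoter windows were aligned with Biopython 1.88.

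The members, lists, the set term and the tests were chosen with earlier results of these data known. The text names members past the threshold, all Cyp2b genes, in each other subfamily the largest difference and the brightest row, members with a role described, up to 4 called genes a list, and some regulators. Cyp2c37, Cyp2c54, Cyp2c55, Cyp2c65, Cyp2c66, Cyp2d13, Cyp2d26, Cyp2d37-ps, Onecut1, Cish, Socs2, Socs3, Igfals, Itpkc and Snrpa were named after their values were seen. Knockout 7 carries the same description as knockout 5, and 8 the same as 6, but no columns were identical, so each array counted as a sample. Some genes the rule lists are not reported here. Alternatives are listed in the closing section.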

Additional observations from a re-analysis of the deposited data

Results flagged for a closer look

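The groups of all 47 genes and of both targeted genes were searched for an array far from the others, 98 groups in all, after subtracting the mean of each group and set. Only Cyp2j13 in knockout 8 stood out, at 0.35 above the mean of the knockouts of its set. Such a search marks about 1 group in 20 by chance, and the Cyp2j13 signal was below the median of every array.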

How the results depend on the processing

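The count of members lower at an unadjusted p under 0.05 (10) was 7 to 12 under the alternatives run, and 0 members rose at the adjusted threshold under any. The count of members that fell (2) was 0 without the set term, without control 1 and control 4, without knockout 7 and 8, in each set alone and with the replicate block, 1 with knockout 5 averaged with 7 and 6 with 8 or with median centring, 4 with trend and robust eBayes, and 0 to 2 with 1 array left out. Members higher at an unadjusted p under 0.05 (0) were 3 without control 1 and control 4, 2 with a mean filter of 5 or array weights, 6 with trend and robust, 1 in set 1 alone, without knockout 7 and 8 or with the block, and 0 to 3 with 1 array left out. Genes called over the table (137) were 0 without the set term, 26, 67, 12, 2, 2, 222, 325 and 2 without control 1 and 4, with averaged knockouts, without knockout 7 and 8, in set 1, in set 2, with the mean filter, with trend and robust and with the block, and 44 to 132 with 1 array left out. Genes of the companion lists, without the P450 genes outside the members, that fell (5) were 0 without the set term, in each set alone and with the block, 1 without control 1 and 4 or without knockout 7 and 8, 3 with averaged knockouts or array weights and 13 with trend and robust. Those that rose (4) were 0 in the same 4 fits, 2 without control 1 and 4, with averaged knockouts or without knockout 7 and 8, 8 with the mean filter and 13 with trend and robust, and leaving out 1 array gave 1 to 6 and 2 to 5. No member passed the interaction with the set in the fits where it was run.

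Prkaa2 was -1.13 (adjusted p = 0.519) and Prkaa1 -0.67 (adjusted p = 0.987) without the set term. Prkaa1 missed the threshold at -0.64 without control 1 and 4, -0.62 without knockout 7 and 8, -0.48 in set 1, -0.85 in set 2, -0.55 with the block, and ran from -0.73 to -0.58 with 1 array left out, passing in 6 of 14 fits. The Cyp2j median was 0.0946 without control 1 and 4 and -0.05 to 0.10 with 1 array left out, while Cyp2a ran from -0.34 to -0.26, Cyp2b from -0.50 to -0.34, Cyp2c from 0.03 to 0.10 and Cyp2d from 0.06 to 0.09. Over the other alternatives Cyp2a stayed within that range, Cyp2b was -0.29 without control 1 and 4 and -0.53 with the mean filter, Cyp2c was 0.11 without control 1 and 4, Cyp2d was 0.03 without knockout 7 and 8 and 0.05 in set 2, with quantile normalization or with the block, and Cyp2j was -0.06 with the mean filter.

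Signs turned only for differences that did not pass. Cyp2d26 was 0.012 without control 1 and 4, 0.00882 without knockout 7 and 8, 0.000545 with median centring and 0.011 with the block. Cyp2s1 was -0.13 without control 1 and 4 and -0.16 in set 1. Cyp2c40 was -0.029 without knockout 7 and 8 and -0.012 in set 2. In set 1 Cyp2c38 was -0.095, Cyp2j11 -0.24, Cyp2j13 -0.0074 and Cyp2j6 0.055, in set 2 Cyp2c55 was -0.050, and with quantile normalization Cyp2d40 was -0.00048. Rxra was 0.057 without control 1 and 4, 0.0031 without knockout 7 and 8, 0.00725 with array weights and 0.052 with the block. Cyb5a was 0.017 without control 1 and 4, 0.0028 in set 2 and 0.0084 with quantile normalization, and Stat5b 0.0012 without knockout 7 and 8 and 0.0084 in set 2. With 1 array left out Cyp2d26 ran from -0.0205 to 0.0078, Cyp2j8 from -0.052 to 0.11, Cyp2c40 from -0.040 to 0.13, Cyp2s1 from -0.079 to 0.26, Cyp2c38 from -0.062 to 0.14, Rxra from -0.042 to 0.044, Stat5b from -0.10 to 0.018 and Cyb5a from -0.041 to 0.0078. The causes were not tested.

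Cyp2g1 passed with averaged knockouts (adjusted p = 0.0402), trend and robust (0.0456) and array weights (0.0391), Igfals with trend and robust (0.0456), and Cyp2a5 with trend and robust (0.0396). With the replicate number as a block Cyp2a22 was -0.45 (adjusted p = 0.338) and Cyp2r1 -0.39 (adjusted p = 0.286). The numbers are not shown to pair the samples: deviations of arrays with the same number correlated at -0.07 to 0.15, and only control 4 correlated best with its own number. Array signal over background is not known here and limits the dim genes.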
